A study of Mus musculus with 6 samples.

Results

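Peritoneal macrophages (PMs) take up dying cells and meet their nucleic acids, and 10 genes for enzymes that destroy or edit self DNA and RNA were compared between lupus-diseased and control mice. The genes were taken from a list of enzymes linked to lupus or to inherited interferon disease, Dnase2a, Dnase1l3, Trex1, Rnaseh2a, Rnaseh2b, Rnaseh2c, Samhd1, Adar, Pld3 and Pld4, out of 32879 genes with at least 1 transcript record, and each gene's value is the sum over its transcript records. The choice used no measured value, although earlier results of these data were known when it was made. RNA was sequenced from sorted F4/80+ CD11b+ cells of 3 female diseased-BWF1 mice, the F1 offspring of New Zealand black and New Zealand white parents, aged 31, 31 and 34 weeks, which the study's methods describe as having antibodies to double-stranded DNA and severe proteinuria. The 3 female non-lupus-susceptible control mice were F1 offspring of New Zealand white and BALB/c parents, aged 33, 33 and 30 weeks. The animals received no agent that the labels name, and both groups share the New Zealand white parent and differ in the other. The BWF1 mouse develops disease with age through its mixed parental genome and carries no engineered allele. Strain and disease therefore cannot be told apart in any difference below.

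Enzymes of this kind keep self nucleic acid away from the innate sensors. In lysosomes, DNase II (Dnase2a) cuts the DNA of engulfed cells, and PLD3 and PLD4 are exonucleases that trim single-stranded DNA and RNA, which limits the ligands of the endosomal Toll-like receptors. DNASE1L3 is secreted and digests DNA in chromatin and on vesicles released by dying cells. In the cytosol and nucleus, TREX1 degrades DNA, SAMHD1 hydrolyses deoxynucleotides, RNase H2, a complex of the subunits A, B and C, removes ribonucleotides from DNA, and ADAR edits adenosine to inosine in double-stranded RNA. Inherited loss of TREX1, SAMHD1, ADAR or a subunit of RNase H2 causes the interferon-driven Aicardi-Goutieres syndrome, and loss of DNASE1L3 causes a familial form of lupus.

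The gene of DNase II had less than 50% of the control level in PMs of diseased-BWF1 mice, and it was the only gene of the 10 whose difference passed the test. Dnase2a was lower by 1.14 on the log2 scale, which is 45.5% of the control level. Its lysosomal partner Pld3 was also below the controls in every diseased mouse and the RNase H2 subunit gene Rnaseh2c was above them, but neither passed the correction over all genes. Pld4, Samhd1, Trex1, Rnaseh2a, Rnaseh2b and Adar had overlapping groups, and Dnase1l3 was at the limit of detection.

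The libraries held between 3629901 and 5003360 counts per mouse, of which 3376669 to 4604336 fell on genes. No pair of libraries was a duplicate. The sorted population carried the macrophage markers, with the genes of lysozyme (Lyz2), CD11b (Itgam) and F4/80 (Adgre1) at means of 119965, 24218 and 8296 normalized counts in control mice and 87559.8, 26562 and 7369.8 in diseased-BWF1 mice. The summed level of 10 macrophage markers was 38183 to 51602 CPM (counts scaled to the library total after TMM normalization) in control mice and 32263 to 37943 CPM in diseased-BWF1 mice, and this gap came from Lyz2. Without Lyz2, a sum computed after these values were seen, the other 9 markers had 11269 to 12719 and 12067 to 12430.1 CPM, which overlap. edgeR called 0 of the 10 markers and DESeq2 called Cd68 as lower. An unadjusted p under 0.05 was found for 4 of them, Cd68 (log2 fold change -1.10), Icam2 (-0.55) and Timd4 (-0.53) below 0 and Cd14 (0.88) above it, and Itgam, Csf1r and Mertk also had values above 0. The summed level of 9 measured B cell markers, led by Cd79a, was 5.43 to 8.05 CPM in control mice and 2.37 to 4.75 in diseased-BWF1 mice. For 8 measured markers of T and NK cells, led by Cd3d, these ranges were 0.608 to 2.99 and 1.33 to 3.25 CPM. The 7 markers of neutrophils, led by Cxcr2, had 5.44 to 8.20 and 4.53 to 8.5 CPM, with Ly6g and Retnlg at 0, and the 7 markers of mast cells and eosinophils, led by Siglecf, had 1.52 to 1.90 and 0.527 to 2.93 CPM, with Kit, Fcer1a, Mcpt4 and Prg2 at 0. Of the 6 plasma cell markers only Xbp1, which macrophages also express, exceeded the low-count filter, and of the 6 markers of plasmacytoid dendritic cells only Tcf4 did. The summed levels of these lists were 191 to 358 and 268 to 309.6 CPM, and 123 to 164 and 101 to 116 CPM. The summed level of 7 dendritic cell markers was lower in diseased-BWF1 mice, 44.4 to 85.1 against 9.23 to 18.1 CPM. This was mostly through Cd209a, which was called at a log2 fold change of -4.34. Zbtb46, the only other tested marker of this list, had 0.41 and was not called, and Ccr7 was at 0. The summed level of 5 monocyte markers was higher in diseased-BWF1 mice, 97.5 to 135 CPM against 22.5 to 41.8 CPM in control mice. Of the 2 tested markers of this list, edgeR and DESeq2 each called 1 as higher. The other, Ccr2, had a log2 fold change of 1.43 and was not called. Ly6c2 was near 0 in both groups, with 1, 0 and 0 counts in control mice and 0 in every diseased-BWF1 mouse. The part of such cells in the differences below was not tested.

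Promoter sequences are shown for the 3 genes with the smallest p among the 10, so that the genes behind the differences can be seen. They are the 250 bases before the annotated start, from RefSeq on GRCm38.p6, the build named in the submitters' processing notes. This is the sequence of C57BL/6J, a strain that is a parent of neither group. The interval of Dnase2a is chr8:84908505-84908754 on the plus strand, that of Pld3 is chr7:27553219-27553468 on the minus strand, and that of Rnaseh2c is chr19:5601623-5601872 on the plus strand. Capitals mark a match to GAAANNGAA, the core of the interferon-stimulated response element, on either strand.
Dnase2a: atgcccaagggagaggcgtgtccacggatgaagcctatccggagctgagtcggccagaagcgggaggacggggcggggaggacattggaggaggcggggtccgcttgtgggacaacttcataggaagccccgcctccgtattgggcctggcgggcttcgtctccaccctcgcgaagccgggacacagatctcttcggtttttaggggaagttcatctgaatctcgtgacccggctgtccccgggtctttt
Pld3: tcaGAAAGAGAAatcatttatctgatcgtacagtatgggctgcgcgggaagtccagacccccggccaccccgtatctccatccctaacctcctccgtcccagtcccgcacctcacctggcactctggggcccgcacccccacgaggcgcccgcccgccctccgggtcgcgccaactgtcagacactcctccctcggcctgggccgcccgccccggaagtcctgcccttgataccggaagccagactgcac
Rnaseh2c: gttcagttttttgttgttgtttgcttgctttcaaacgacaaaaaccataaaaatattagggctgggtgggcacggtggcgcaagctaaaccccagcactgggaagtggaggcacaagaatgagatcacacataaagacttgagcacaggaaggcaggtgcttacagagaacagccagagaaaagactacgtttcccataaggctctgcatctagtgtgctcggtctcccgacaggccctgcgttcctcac

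Of the 10 genes, 8 matched the promoter table with 11 promoters, and Rnaseh2b and Dnase1l3 had none in it. In the full windows of 250 bases before to 50 bases after the start, CACGTG, the E-box core bound by Tfe3 and Tfeb, was in none of the 11 promoters and in 7.15% of all 32851 promoters. The GAAANNGAA core was in the promoter of Pld3, 247 bases before its start, and in 1 of 3 promoters of Adar, which held 2 matches, against 8.56% of all promoters. The E-box core reads the same on both strands, and no window of the 10 genes held both motifs. Such matches describe the letters of the window only.

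Dnase2a lies on chromosome 8 from 84908755 to 84911703 (GRCm38.p6), is protein coding, and overlaps no other gene of the RefSeq table. Its normalized counts (counts divided by the size factor of each library) were 410.4, 494 and 541 in controls against 212, 227 and 219 in diseased-BWF1 mice. The lowest control mouse was above the highest diseased-BWF1 mouse, and the diseased mice lay closer together than the controls. The means were 482 ± 66.1 (SD, n = 3) and 219 ± 7.22. The log2 fold change was -1.14 (standard error 0.14, 95% interval -1.46 to -0.81, edgeR adjusted p = 0.0192), where p came from the quasi-likelihood test, here and below, and was corrected by Benjamini-Hochberg over 10505 genes. A gene was called when its adjusted p was below 0.05 and it changed at least 1.5-fold, which applied to 1.22% of all tested genes, and 0.819% of them as lower in diseased-BWF1 mice. Among all tested genes, Dnase2a had rank 33 by p. The macrophage markers other than Lyz2 had overlapping summed levels in the groups, and Itgam had the highest level among them. Taken singly, Adgre1, Cd68, Timd4 and Icam2 were lower in every diseased-BWF1 mouse than in any control mouse, and Cd14 was higher. Itgam, Csf1r, Gata6 and Mertk overlapped between the groups. An exact two-sided permutation test over the 6 mice gave p = 0.1, the smallest that 3 mice against 3 allow. In a bulk sample, fewer cells that express a gene and less RNA per cell cannot be told apart.

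The size of the difference varied less than the call. With any single mouse omitted, the log2 fold change of Dnase2a stayed between -1.25 and -1.04. The gene was called without control mouse 1 (adjusted p = 0.0312) or control mouse 3 (adjusted p = 0.0387). It missed the threshold without control mouse 2 (adjusted p = 0.0822) or diseased-BWF1 mouse 1 (adjusted p = 0.0882), 2 (adjusted p = 0.0628) or 3 (adjusted p = 0.0733). DESeq2, the tool of the study's methods, gave an adjusted p of 1.98e-07 and called 3.07% of the genes for which it gave an adjusted p.

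**Figure D1:**
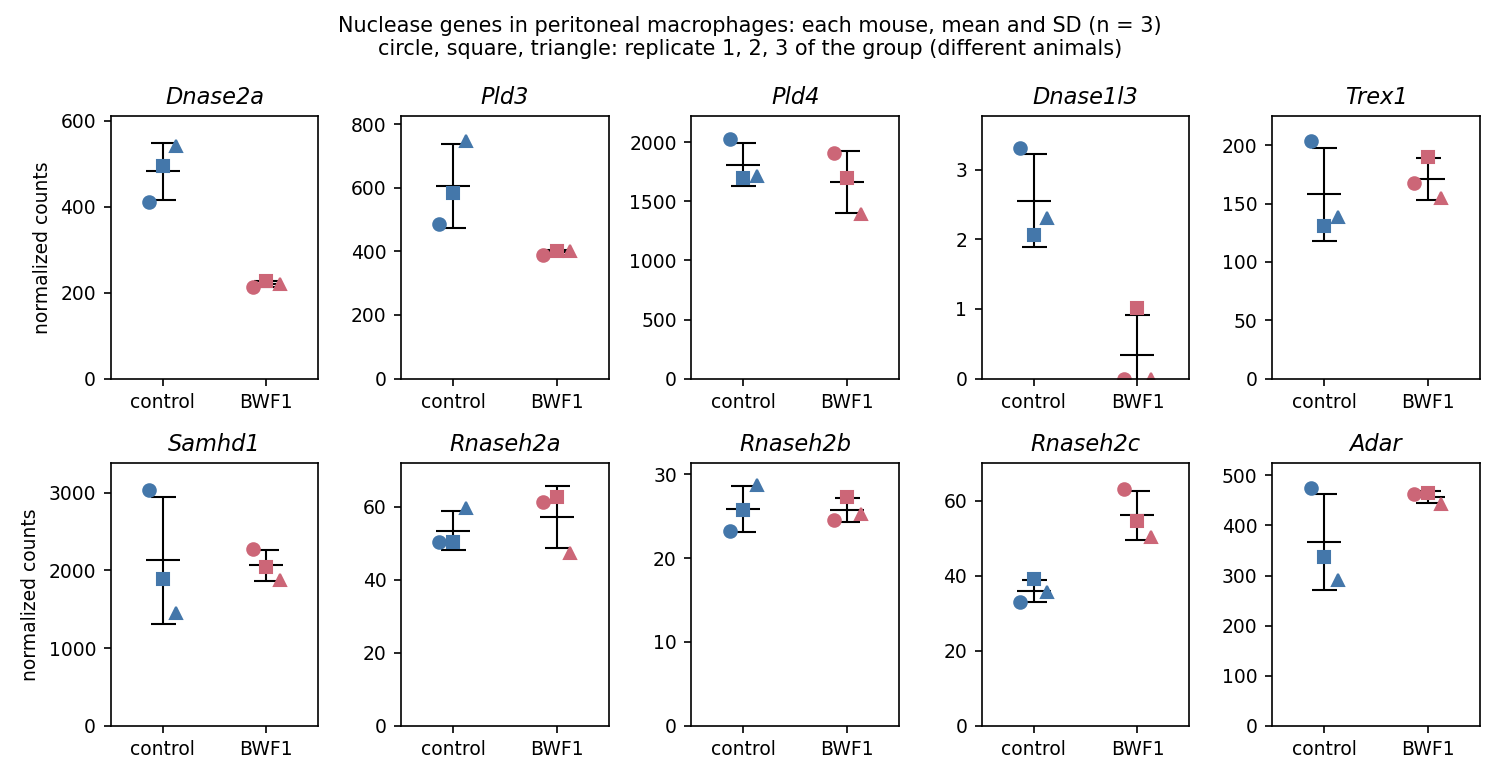
Normalized counts of the 10 nuclease genes in each mouse, with 1 panel per gene, linear axes from 0 and bars for the mean ± SD of 3 mice. All diseased-BWF1 mice (red) lie below all control mice (blue) for Dnase2a, from 212 to 227 against 410.4 to 541, while the groups overlap for Pld4 and Samhd1.

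The lysosomal exonuclease Pld3 (chromosome 7, 27531367 to 27553229) had 485, 585 and 746 normalized counts in controls against 389, 402 and 402 in diseased-BWF1 mice. Every control mouse was again above every diseased mouse, but the controls ranged widely. The means were 606 ± 132 (SD, n = 3) and 398 ± 7.63. The log2 fold change was -0.61 (standard error 0.17, 95% interval -1.01 to -0.20, edgeR adjusted p = 0.183), and DESeq2 gave an adjusted p of 0.0822, so neither tool called it.

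Pld4 (chromosome 12, 112760446 to 112768986), a paralog of Pld3 with the same kind of activity, had 2025, 1698 and 1712 normalized counts in controls against 1914, 1695 and 1393 in diseased-BWF1 mice. The groups overlapped over most of their range. On the log2 scale the difference was -0.12 (standard error 0.17, edgeR adjusted p = 0.803), and the 95% interval, from 0.703 to 1.20 times the control level, did not reach a change as large as that of Dnase2a.

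Ratios of deposited counts within a library need no normalization and compare the lysosomal genes directly. There were 0.203, 0.291 and 0.316 counts of Dnase2a for each count of Pld4 in controls against 0.111, 0.134 and 0.157 in diseased-BWF1 mice. This ratio was lower in every diseased mouse, by 1.00 on the log2 scale. The ratio of Dnase2a to Pld3 was 0.846, 0.844 and 0.725 in controls against 0.546, 0.564 and 0.544 in diseased-BWF1 mice, also without overlap. The ratio of Pld3 to Pld4 overlapped between the groups, with 0.239, 0.345 and 0.436 against 0.203, 0.237 and 0.289. Among 6 ratios compared, exact two-sided permutation tests gave p = 0.1 for the first pair of ratios and p = 0.2 for the last, or 0.15 and 0.24 after Benjamini-Hochberg adjustment over the 6. The smallest p of this design cannot pass 0.05.

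Dnase1l3 (chromosome 14, 7965187 to 7994760), the gene of the secreted DNase, had 4, 2 and 2 counts in controls against 0, 1 and 0 in diseased-BWF1 mice and was the only gene of the 10 below the low-count filter. Most of these values are at or under 3 counts, which correspond to 0.652 to 0.888 CPM. Over the groups, 8 counts stood against 1, a ratio of 7.75 relative to the counts on genes (exact 95% interval 1.04 to 344, for counting error only, since reads copied by PCR are not independent molecules). Without the filter, the adjusted p of edgeR was 0.511. A difference could not be established at this depth.

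Trex1 (chromosome 9, 109057932 to 109059723), the main cytosolic DNA exonuclease, had 204, 131 and 139 normalized counts in controls against 168, 190.4 and 155 in diseased-BWF1 mice. Control mouse 1 was the highest of all 6 and the other controls were the lowest. Between the groups the log2 fold change was 0.11 (standard error 0.20, 95% interval -0.35 to 0.57, edgeR adjusted p = 0.857). The gene overlaps the RefSeq readthrough gene Atrip-trex1, for which no record was matched, so its counts hold any reads of that transcript that were assigned to Trex1.

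Samhd1 (chromosome 2, 157097534 to 157135096), which lowers the pool of deoxynucleotides, had 3041, 1888 and 1453 normalized counts in controls against 2274, 2046 and 1871 in diseased-BWF1 mice. The diseased mice all fell inside the range of the controls. The coefficient of variation was 38.6% among controls, the highest of the 9 tested genes, and 9.79% among diseased mice. On the log2 scale, diseased minus control was -0.05 (standard error 0.27, edgeR adjusted p = 0.965), with a 95% interval of 0.629 to 1.49 times the control level. Without control mouse 1 it was 0.30 (adjusted p = 0.597).

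Adar (chromosome 3, 89714469 to 89753455), the RNA editing enzyme, had 475, 337 and 291 normalized counts in controls against 463, 465 and 443 in diseased-BWF1 mice. Control mouse 1 was above every other mouse, and the remaining controls were below every diseased mouse. On the log2 scale the groups differed by 0.31 (standard error 0.19, 95% interval -0.13 to 0.75, edgeR adjusted p = 0.541), and it was 0.53 without control mouse 1.

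Trex1, Samhd1 and Adar are known to be inducible by interferon, and control mouse 1 had the highest value of each. The summed level of 25 interferon-stimulated genes was 2085, 831 and 906 CPM in controls against 1238, 1308 and 749 CPM in diseased-BWF1 mice. Control mouse 1 was thus also the highest for this list, and its part in the values of the 3 genes was not tested. Of the 23 tested genes of the list, 0 were called by edgeR in either direction and 0 by DESeq2. An unadjusted p under 0.05 was found for 2 of them, against 13.2% of all tested genes. The median log2 fold change was 0.03 against 0.01 over all tested genes. The smallest p belonged to Bst2, the gene of tetherin, with 429, 212 and 294 normalized counts in controls against 164, 191 and 128 in diseased-BWF1 mice (log2 fold change -0.96, edgeR adjusted p = 0.187). Ifi44 had a log2 fold change of -2.03 (adjusted p = 0.314), with 308 normalized counts in control mouse 1 and 11.1 to 78.2 in the other mice. Ifi35 followed with 0.36 (adjusted p = 0.398).

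The subunits of RNase H2 did not have equal values. The gene of subunit C, Rnaseh2c (chromosome 19, 5601873 to 5602959), had 33.1, 39.1 and 35.6 normalized counts in controls against 63.3, 54.7 and 50.4 in diseased-BWF1 mice. Every diseased mouse was above every control mouse. The means were 35.9 ± 3.01 (SD, n = 3) and 56.1 ± 6.54, and the log2 fold change was 0.64 (standard error 0.19, 95% interval 0.19 to 1.09, edgeR adjusted p = 0.207), so the difference did not pass the threshold. These values rest on 31 to 67 counts per library.

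The gene of the catalytic subunit, Rnaseh2a (chromosome 8, 84956610 to 84969598), had 50.5, 50.4 and 59.7 normalized counts in controls against 61.4, 62.8 and 47.4 in diseased-BWF1 mice. The groups overlapped, and the difference on the log2 scale was 0.10 (standard error 0.19, edgeR adjusted p = 0.874). Rnaseh2b (chromosome 14, 62332068 to 62372996) had 23.2, 25.7 and 28.7 against 24.6, 27.3 and 25.2, which differ by -0.01 on the log2 scale (standard error 0.23, adjusted p = 0.998). The 95% intervals of both genes reached at most 1.46 times the control level. The end of Rnaseh2b overlaps Gucy1b2 on the other strand, which had 7 counts in all 6 libraries together. Similarly, the end of Adar overlaps Chrnb2 on the other strand, with 14 counts.

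Within each library, there were 0.656, 0.776 and 0.596 counts of Rnaseh2c for each count of Rnaseh2a in controls against 1.03, 0.871 and 1.06 in diseased-BWF1 mice. The ratio of Rnaseh2c to Rnaseh2b was 1.43, 1.52 and 1.24 in controls against 2.58, 2.00 and 2.00 in diseased-BWF1 mice. Both ratios were higher in every diseased mouse (exact two-sided permutation test, p = 0.1, adjusted p = 0.15 over 6 ratios). The ratio of Rnaseh2a to Rnaseh2b lay between 1.88 and 2.50 in all mice and overlapped between the groups.

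In all, 9 of the 10 genes were tested, 1 was called as lower and 0 as higher by edgeR, and DESeq2 called the same gene alone. An unadjusted p under 0.05 was found for 3 of the 9, Dnase2a, Pld3 and Rnaseh2c, against 13.2% of all tested genes. For these same 3 genes the ranges of control and diseased mice were apart, as for 20.8% of all tested genes. Over the 9 genes the median log2 fold change was -0.01, where that of all tested genes was 0.01.

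**Figure D2:**
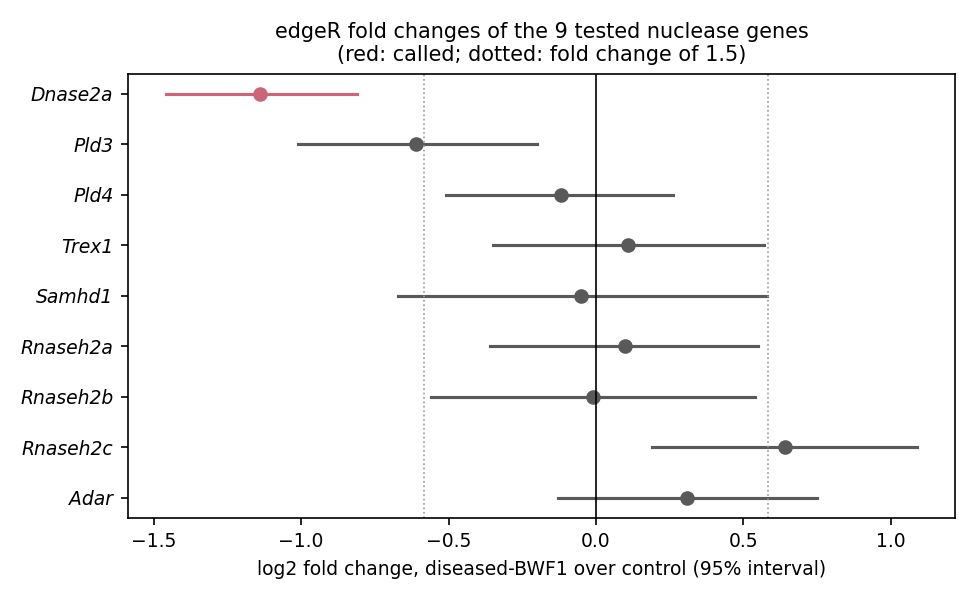
Log2 fold changes of the 9 tested nuclease genes, diseased-BWF1 over control, as points with 95% intervals from edgeR. The interval of Dnase2a (red, -1.46 to -0.81) lies wholly beyond a 1.5-fold decrease (dotted lines), and the intervals of Pld4, Trex1, Samhd1, Rnaseh2a, Rnaseh2b and Adar cross 0.

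Per length of transcript, the 10 genes covered a wide range of levels, and Dnase2a changed its place among them. Levels were CPM per kilobase, with the mean length of the GENCODE transcripts linked to each gene's curated records. Pld4 at 241 ± 23.8 (SD, n = 3) and Samhd1 at 189 ± 72.4 CPM per kilobase were highest in control mice, with overlapping ranges. Dnase2a at 74.1 ± 10.4 and Pld3 at 69.8 ± 15.4 followed, again overlapping. Trex1 had 39.0 ± 9.84 and Adar 18.7 ± 4.82. The RNase H2 subunits were lower still, with 8.42 ± 0.718 for Rnaseh2c, 6.91 ± 0.711 for Rnaseh2a and 4.57 ± 0.504 for Rnaseh2b, and the ranges of Rnaseh2c and Rnaseh2a met at 7.73. Dnase1l3 was last with 0.142 ± 0.0365.

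In diseased-BWF1 mice, Pld4 at 222 ± 36.1 and Samhd1 at 183 ± 19.1 CPM per kilobase again led with overlapping ranges. Pld3 at 45.7 ± 0.660 and Trex1 at 42.2 ± 4.49 overlapped and came next. Dnase2a had 33.7 ± 1.05 and stood in place 5 in each of the 3 diseased mice, where it had stood in place 3, 3 and 4 in the controls. It was below Trex1 in every diseased mouse and above it in every control mouse. Adar followed with 23.2 ± 0.748, then Rnaseh2c with 13.1 ± 1.61, Rnaseh2a with 7.37 ± 1.13 and Rnaseh2b with 4.53 ± 0.255, without overlap between neighbours, and Dnase1l3 was again last with 0.0187 ± 0.0324.

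The deposited files count each RefSeq transcript record separately, and the 10 genes had 27 records, of which 22 held a count. Records of a gene share most of their sequence, so the division among them is an estimate. Dnase2a, Rnaseh2b and Rnaseh2c had a single record each. The counts of Samhd1 were divided between NM_001139520.1 and NM_018851.3, and the second held 40.2% to 56.7% of the counts of a mouse. It had 1800, 774 and 508 counts in controls against 1366, 998 and 996 in diseased-BWF1 mice, so the high value of control mouse 1 was present in both records, with 1875 counts in the first.

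For Adar, NM_019655.3 held 59.3% to 91.8% of the counts of a mouse. The record NM_001146296.1 ranged from 5 to 148 counts in control mice and from 16 to 170 in diseased-BWF1 mice, and NM_001038587.4 was at 0 in 3 of the 6 mice. These records therefore varied within each group by more than they differed between the groups. For Trex1, NM_001012236.1 held at least 77.7% of the counts of each mouse. For Pld3, NM_011116.2 had 579, 559 and 640 counts in controls against 291, 391 and 301 in diseased-BWF1 mice, which was 98.2% to 98.8% of a control mouse's counts and 70.6% to 98.5% of a diseased mouse's. In diseased-BWF1 mice 1 and 3, a further 112 and 61 counts of Pld3 were assigned to XM_006539642.2, a predicted record with 0, 0 and 3 counts in the controls. Tested on its own, NM_011116.2 had a log2 fold change of -0.88 (edgeR adjusted p over records = 0.352), larger than that of the gene.

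**Figure D3:**
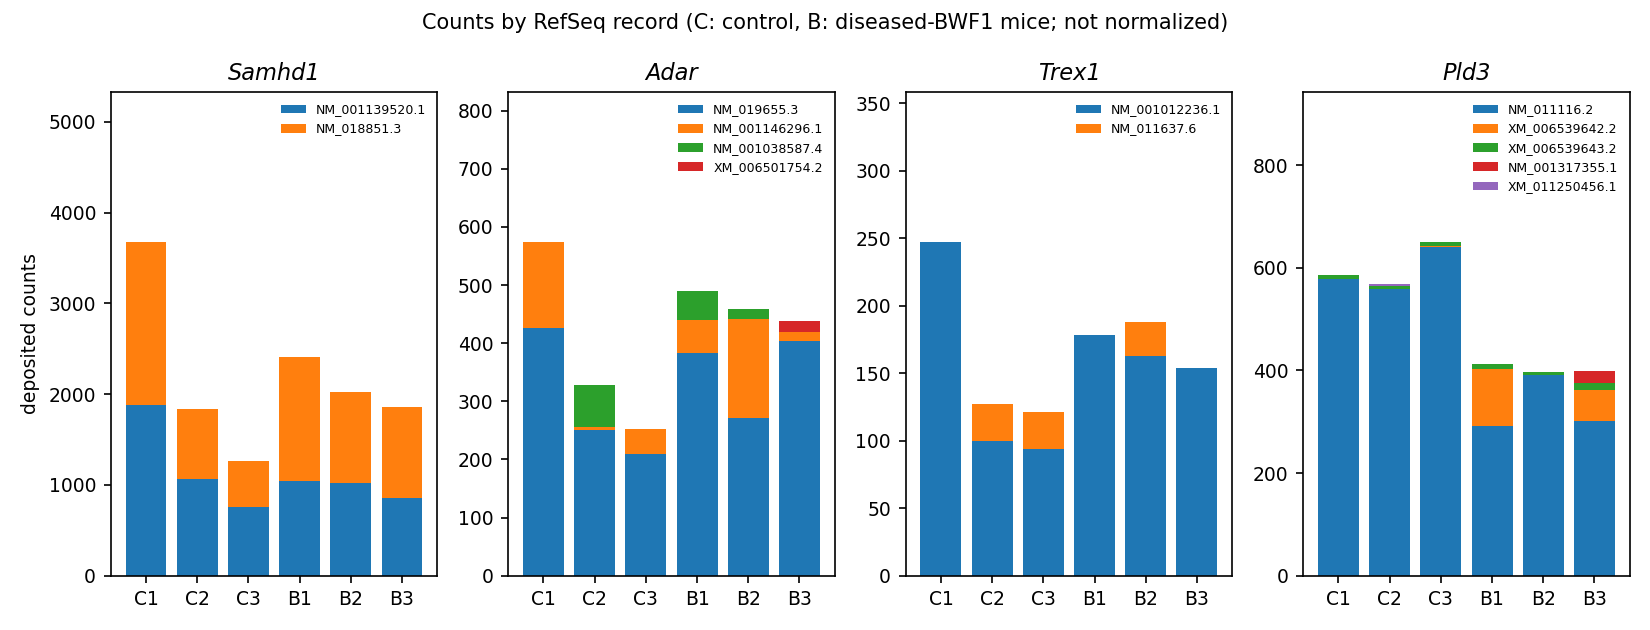
Deposited counts of Samhd1, Adar, Trex1 and Pld3 in each of the 6 libraries, stacked by RefSeq record and not normalized. The share of the minor records of Adar, Trex1 and Pld3 varies between mice of the same group, and both records of Samhd1 are highest in control mouse 1.

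Of 31 genes for lysosomal nucleic acid disposal and delivery, which include proteases, glycosidases and transporters of the compartment, all were tested and most had lower values in diseased-BWF1 mice. edgeR called 2 as lower and 0 as higher, 24 had a log2 fold change below 0, and 15 had an unadjusted p under 0.05. The median was -0.41 against 0.01 over all tested genes. For this list and the related lists below, the shares over all tested genes were 1.22% called by edgeR, 0.819% as lower. An unadjusted p under 0.05 was found for 13.2% of all tested genes. DESeq2 called 3.07% of the genes for which it gave an adjusted p. Of the lysosomal list, DESeq2 called 9 as lower and 0 as higher. These included Tfe3, Gla, Ctsb, Lgmn, Ctsd, Grn, Rnaset2a and Hexa, which mostly encode lysosomal hydrolases. The list's summed level was 27754, 27783 and 34622 CPM in controls against 19016, 19631 and 21991 CPM in diseased-BWF1 mice, without overlap. The log2 fold changes of all 31 were above that of Dnase2a.

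Tfe3, a transcription factor that drives lysosomal genes, was among the called genes of this list and had 824, 703 and 757 normalized counts in controls against 423, 432 and 363 in diseased-BWF1 mice (log2 fold change -0.91, standard error 0.13, edgeR adjusted p = 0.0304). It was lower in every diseased mouse. Tfeb, a relative of Tfe3, had a log2 fold change of -0.08 (adjusted p = 0.872). Unc93b1, which delivers Toll-like receptors to endosomes, had 0.00 (adjusted p = 1), and Slc29a3, a lysosomal nucleoside transporter, had 0.16 (adjusted p = 0.805).

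RNase T2, the main lysosomal RNase, is encoded by the near-identical copies Rnaset2a and Rnaset2b in the reference genome. Rnaset2a had 1551, 1287 and 1341 normalized counts in controls against 992, 831 and 683 in diseased-BWF1 mice (log2 fold change -0.74, edgeR adjusted p = 0.114). Rnaset2b had 152, 180.0 and 299.7 against 343, 314 and 289 (log2 fold change 0.58, adjusted p = 0.382). Reads of such copies can be divided between them, so each value is uncertain. Their sum, examined after these values were seen, was 1704, 1467 and 1641 in controls against 1335, 1145 and 972 in diseased-BWF1 mice, lower in every diseased mouse (exact two-sided permutation test, p = 0.1).

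Of 24 other DNA nucleases, 18 were tested, edgeR called 0, 2 had an unadjusted p under 0.05 and the median log2 fold change was -0.02. DESeq2 called 1 as lower. This was Exog, a mitochondrial nuclease, with 36.4, 12.3 and 32.2 normalized counts in controls against 5.67, 2.03 and 1.01 in diseased-BWF1 mice (log2 fold change -3.15, standard error 0.66, edgeR adjusted p = 0.0827). Rbbp8, the DNA end resection factor CtIP, had 54.6, 49.4 and 57.4 against 100.1, 72.9 and 88.8 (log2 fold change 0.69, adjusted p = 0.151). Dnase1l1, a relative of Dnase1l3, had a log2 fold change of -0.39 (adjusted p = 0.447). Trex2, the closest relative of Trex1, was at 0 counts in every library.

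Of 24 other RNA nucleases and RNA editing enzymes, 21 were tested, edgeR and DESeq2 each called 0, 5 had an unadjusted p under 0.05 and the median log2 fold change was 0.15. Apobec1, a cytidine deaminase, had 916, 808 and 1056 normalized counts in controls against 662, 699.8 and 740.3 in diseased-BWF1 mice (log2 fold change -0.41, edgeR adjusted p = 0.272). Adarb1, the paralog of Adar, had 168, 187 and 288 against 309, 296 and 382 (log2 fold change 0.62, adjusted p = 0.295).

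Of 23 nucleic acid sensors and signalling genes, which read the substrates of the 10 enzymes, 22 were tested and had a median log2 fold change of 0.01. edgeR called 1 as higher and 1 as lower, as did DESeq2, and 5 had an unadjusted p under 0.05. Ikbke, a kinase that activates interferon regulatory factors, had 317, 299 and 284 normalized counts in controls against 621, 466 and 558 in diseased-BWF1 mice (log2 fold change 0.87, edgeR adjusted p = 0.0437). Tlr8, an endosomal receptor for RNA fragments, had 1285, 1168 and 1274 against 651, 594 and 794 (log2 fold change -0.87, adjusted p = 0.045). Of 23 genes of dNTP supply and replication, which bear on the substrates of SAMHD1 and RNase H2, 20 were tested, edgeR and DESeq2 each called 0, 2 had an unadjusted p under 0.05 and the median log2 fold change was 0.00. The smallest p were those of the replication helicase gene Mcm6 (log2 fold change 0.72, adjusted p = 0.324), the mitochondrial deoxyguanosine kinase gene Dguok (-0.46, adjusted p = 0.369) and the dUTPase gene Dut (0.92, adjusted p = 0.414).

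**Figure D4:**
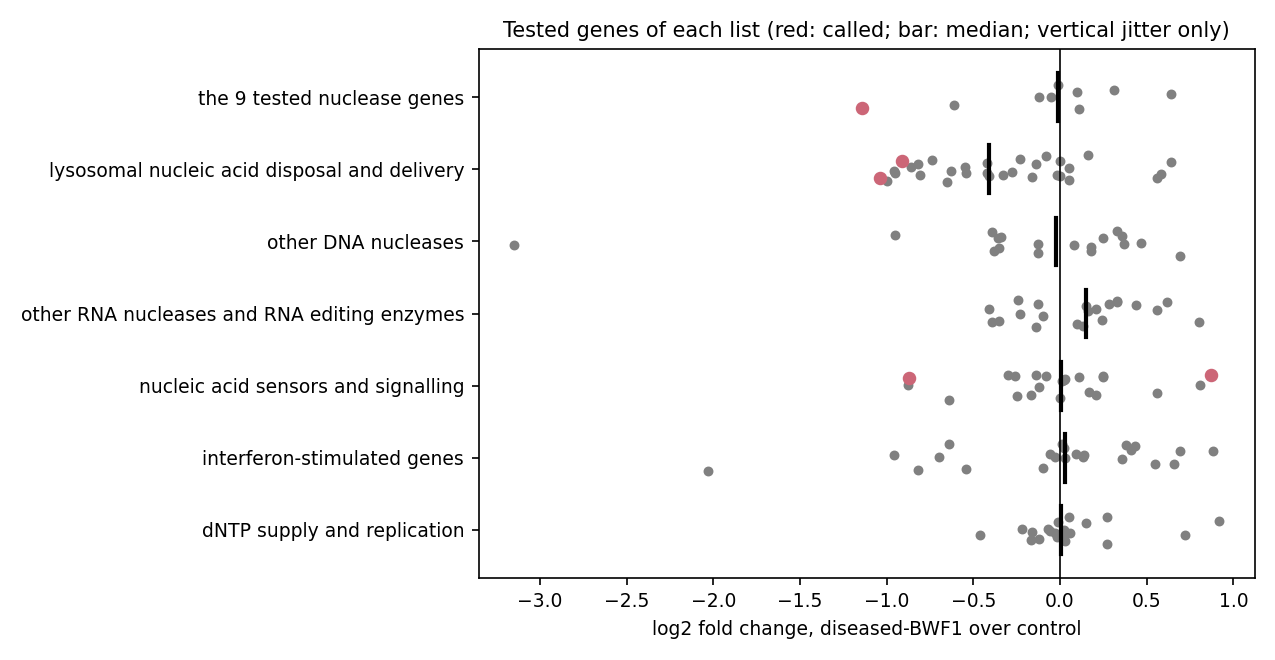
Log2 fold changes of all tested genes of the nuclease list and of 6 lists of related genes, with 1 point per gene, bars for medians and vertical jitter only. The lysosomal list lies mostly below 0 with a median of -0.41, while the medians of the other related lists lie between -0.02 and 0.15.

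Dnase2a and Rnaseh2a are neighbours on chromosome 8, with 44906 bases between them, and had log2 fold changes of -1.14 and 0.10. Within 250 kb on each side of Dnase2a, 22 other genes were tested. edgeR called 0 of them, 3 had an unadjusted p under 0.05, and 14 had a log2 fold change above 0 and 8 below it. Their values lay between -0.76 (Hook2, standard error 0.86) and 0.84 (Junb, standard error 0.15), with a median of 0.08. The 3 were Junb, Ier2 (0.73) and Nfix (0.70), all above 0, and DESeq2 called Junb and Ier2 as higher. The neighbours were examined after the values of Dnase2a were known.

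**Figure D5:**
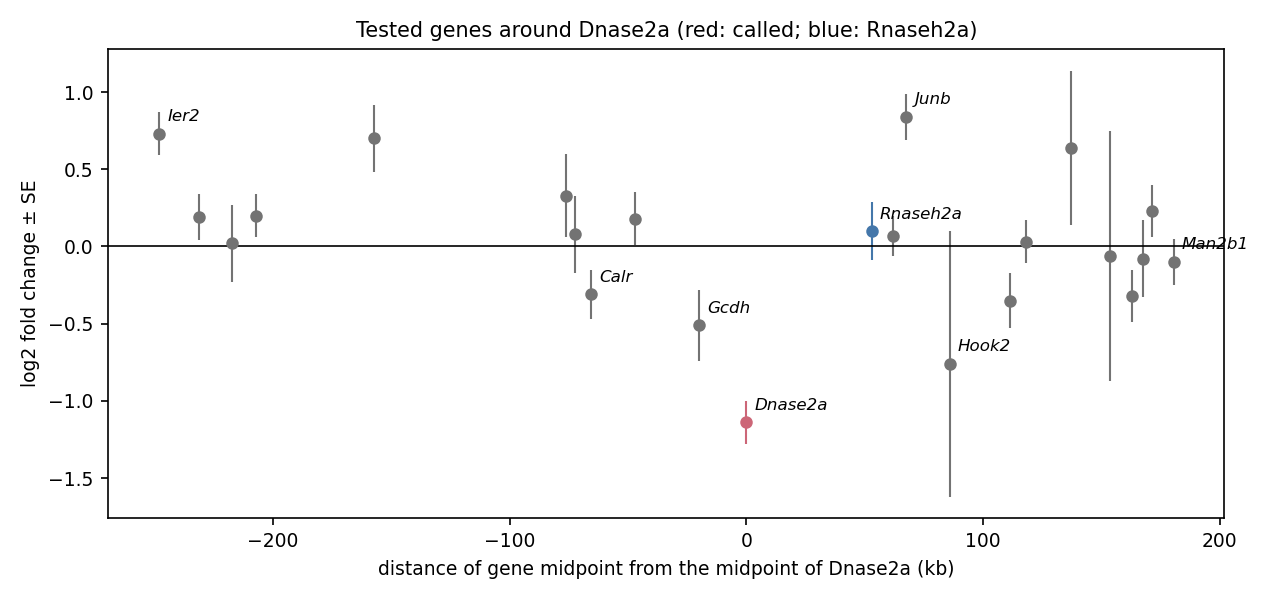
Log2 fold change ± standard error of the tested genes against the distance of their midpoints from that of Dnase2a in kb. Dnase2a (red) has the lowest value in the window at -1.14, and Rnaseh2a (blue) is at 0.10.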

How the data were processed

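Per the labels and the study's methods, RNA of sorted PMs from 6 mice was sequenced as paired-end reads of stranded mRNA libraries. The authors deposited, for each mouse, estimated counts as whole numbers for 107193 RefSeq records, without normalization. The submitters' processing notes name Salmon 0.8.0, DESeq2 and GRCm38.p6, with no role or order, and the annotation release is not given in the sources used here. Estimated counts divide shared reads among similar transcripts, which can move counts between copies and records.

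Records were matched by accession to the RefSeq gene table of GRCm38.p6 (45754 in the same version, 40712 in another) and summed over 32879 genes. A further 20727 records found no match and were not used (6.98% to 10.9% of the counts per mouse). R 4.3.3 was used with edgeR 4.0.16 (filterByExpr, TMM, quasi-likelihood test, Benjamini-Hochberg over 10505 genes), DESeq2 1.42.0 and limma 3.58.1. The common dispersion was 0.0543. Normalized counts used DESeq2's size factors, from 0.871 to 1.21. Standard errors are the log2 fold change divided by the root of the F statistic. The code was tested on simulated data. Calls needed an adjusted p below 0.05 and a change of 1.5-fold or more, as in the study's methods, which used DESeq2.

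The 10 genes and the related lists were chosen with earlier results of these data known. The text names the 10 genes, the called genes of each related list or else the 3 with the smallest p, and the leading and called genes of each marker list. Some genes that this rule names are not reported here. Tfeb, Unc93b1, Slc29a3, Trex2, the RNase T2 genes, the further genes called by DESeq2, the ratios, the sum of the RNase T2 copies and the neighbours were added after values were seen. Mice of the same number are different animals, and deviations from the group means of same-numbered mice correlated at 0.12, 0.01 and 0.16. P-values set the difference between the groups against the spread between these mice. Those of edgeR use, for each gene, a spread moderated by that of all tested genes.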

Additional observations from a re-analysis of the deposited data

How the results depend on the processing

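The alternatives were DESeq2, limma-voom, RLE or upper quartile normalization, no low-count filter, a minimum of 10 counts per library, age as a covariate, the replicate block, curated mRNA records alone, each mouse left out in turn, no fold-change threshold and the most abundant record tested on its own. The log2 fold change of Dnase2a stayed between -1.25 and -1.04 in all of them. It missed the threshold at -1.13 with the replicate block (adjusted p = 0.0564), with curated records alone (-1.13, adjusted p = 0.0537) and as a single record (-1.13, adjusted p = 0.182), although these fits use the same Dnase2a counts, and in 4 of the 6 fits that left out a mouse. Whether mice of the same replicate number belong together was not established. Deviations from the group means correlated at 0.12, 0.01 and 0.16 for same-numbered mice, and at -0.14 to 0.06 for the other pairs. The number of the 10 genes called was 0 with the replicate block and with curated records alone, and 0 to 1 with a mouse left out. Over all genes, 128 calls became 370 with DESeq2, 259 without the filter and 84 with a minimum of 10 counts per library. They became 91 with limma-voom, 87 with age as a covariate, 38 with the replicate block and 16 with curated records alone. With a mouse left out there were 21 to 51 calls. There were 125 with RLE normalization, 124 with upper quartile normalization and 128 without the fold-change threshold. The cause was not tested.

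Values near 0 changed sign. Samhd1 was at 0.02 with the replicate block, 0.03 with limma-voom and -0.26 to 0.30 with a mouse left out. Rnaseh2b was at 0.01 with limma-voom and -0.09 to 0.07 with a mouse left out, Trex1 at -0.01 to 0.34 with a mouse left out, and the main record of Rnaseh2a at -0.13. Pld3 stayed between -0.88 and -0.43 and Rnaseh2c between 0.54 and 0.72, and neither was called under any alternative. DESeq2 called 9 lysosomal genes as lower in place of 2, and 1 other DNA nuclease in place of 0. The depth limits the RNase H2 subunit genes, with 25 to 67 counts per library, and Dnase1l3, with at most 4.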
